A study of Mus musculus with 10 samples.

Results

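The intercalated disc is the end-to-end contact between heart muscle cells, and 10 genes of it were followed: 4 connexins (Gja1, Gja5, Gjc1 and Gja4), 4 desmosome genes (Dsp, Pkp2, Jup and Dsg2), the adherens junction gene Cdh2 and the scaffold gene Tjp1. They were chosen by symbol for their function, with earlier results of these data known. They make up 10 of the 37583 genes counted, and all 10 passed the filter on low counts that left 15364 genes for testing.

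Connexins assemble into channels that join the cytoplasm of neighbouring cells, so that the action potential can pass from cell to cell. Desmosomes and adherens junctions hold the same cells together, the first by tying into desmin filaments and the second into actin, and in the heart both kinds of junction mix in a structure called the area composita. Atrial muscle differs from ventricular muscle in using connexin 40, encoded by Gja5, beside connexin 43, encoded by Gja1, and both proteins have been studied for many years in the context of atrial fibrillation.

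Messenger RNA of the left atria of adult Mus musculus was sequenced in 10 libraries, in a series whose title names atrial fibrillation under ibrutinib. Mice given ibrutinib (IBR), a drug for B cell cancers that blocks Bruton's tyrosine kinase, and vehicle-treated mice (CTL) gave 3 libraries each. Mice labelled as a cardiac knockout of Csk (KO), the gene of C-terminal Src kinase, which holds Src family kinases inactive, and untreated wild-type mice (WT) gave 2 libraries each, named KO26, KO337, WT35 and WT338. The sources used here do not give strain, exact age, dose, duration or the Cre driver of the knockout, nor do they say whether each library is a separate animal, so p-values measure the spread between these libraries, which may be in part technical.

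Total counts on genes ran from 14907331 to 19960947 per library. Csk stood at 24.7 and 35.5 CPM (counts scaled to the same library size by the trimmed mean of M values, TMM) in KO26 and KO337, against 18.2 and 17.8 CPM in WT35 and WT338, and in edgeR's quasi-likelihood test its log2 difference, KO minus WT, of 0.74 (standard error, SE, 0.18, adjusted p = 0.0608) did not pass the threshold of 0.05 at which a gene is called. Since the counts cover the whole gene and all cell types, they do not show whether an exon is missing or whether muscle cells lost the transcript, so Csk does not check the genotype and the libraries are called by their labels. KO26 and KO337 stood further apart than any other pair within a group (Spearman correlation over genes 0.955, against 0.984 to 0.991 elsewhere), so each KO result is given below with its value in each library. In bulk tissue, fewer cells of a type and less RNA per cell cannot be told apart.

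The start regions of Gja1, Gja5 and Dsp are shown because the results turn on the balance of Gja1 and Gja5 and on Dsp, which had the highest CPM of the 10. Of the 10 genes, 6 had an entry in the set of RefSeq (GRCm38.p6) start regions used here. The 3 printed run from 250 bases before to 50 bases after the start, 5′ to 3′ on the gene's own strand. Capitals mark letters matching a GATA site (GATAA), an AP-1 site (TGANTCA), a T-box half-site (GGTGTG) or an Sp1 site (GGGCGG), searched on both strands together with an NKX2-5 site (TNAAGTG) and a TATA box (TATAAA). Matches on the other strand appear as their reverse complement. Gja1 lies at chr10:56377050-56377349, Gja5 at chr3:97032152-97032451 and Dsp at chr13:38151044-38151343, all on the plus strand.
Gja1: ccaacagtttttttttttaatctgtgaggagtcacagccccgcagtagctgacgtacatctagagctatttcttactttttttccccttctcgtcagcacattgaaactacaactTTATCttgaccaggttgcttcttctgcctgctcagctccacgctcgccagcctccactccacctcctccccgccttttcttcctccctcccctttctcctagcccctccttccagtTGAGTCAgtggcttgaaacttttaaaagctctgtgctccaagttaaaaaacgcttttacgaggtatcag
Gja5: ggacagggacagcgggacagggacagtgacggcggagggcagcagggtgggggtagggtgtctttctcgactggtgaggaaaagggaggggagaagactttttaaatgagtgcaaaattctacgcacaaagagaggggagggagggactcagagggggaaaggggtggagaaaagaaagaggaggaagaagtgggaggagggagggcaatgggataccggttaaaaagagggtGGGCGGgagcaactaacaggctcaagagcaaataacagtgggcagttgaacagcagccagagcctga
Dsp: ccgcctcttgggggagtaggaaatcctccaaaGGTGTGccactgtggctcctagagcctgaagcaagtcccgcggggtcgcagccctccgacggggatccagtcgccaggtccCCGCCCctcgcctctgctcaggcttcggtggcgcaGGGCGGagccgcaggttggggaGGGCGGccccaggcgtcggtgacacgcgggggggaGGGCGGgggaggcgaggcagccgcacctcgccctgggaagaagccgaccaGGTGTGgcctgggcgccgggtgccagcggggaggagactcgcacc

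Gja1 held a GATA match on the other strand from -135 to -131 and an AP-1 match from -19 to -13, counted from the transcription start. The Gja5 window held a single match, to the Sp1 letters from -17 to -12. Dsp held the T-box half-site from -218 to -213 and from 5 to 10, and 4 Sp1 matches. Of the 6 start regions, 5 held the Sp1 letters, 2 the T-box half-site, 2 the GATA letters, 1 the AP-1 letters and none the NKX2-5 or TATA letters. Among 32851 start regions of the same length, the shares were 35.7% for Sp1, 19% for T-box, 25.4% for GATA, 7.81% for AP-1, 11.5% for NKX2-5 and 13.6% for TATA. None of these motifs overlapped another in the 3 printed regions. A match is a run of letters, not a bound site.

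Compared per length of exon, in CPM per kilobase, Dsp was the highest of the 10 genes in every group. Lengths were unions of all annotated exons, 9659 bases for Dsp and 10257 bases for Gja1. The order of genes given here depends on that choice of length. In plain CPM, Dsp also had the highest mean of the 10 in every group. Dsp encodes desmoplakin, which links the desmosome to desmin filaments. Its level was 136 ± 15.4 CPM per kilobase in IBR and 133 ± 11.8 CPM per kilobase in CTL libraries (SD, n = 3 each), and 115 ± 51.8 in KO and 183 ± 17.2 in WT libraries (SD, n = 2 each). In no group did its range overlap that of the next gene. In IBR and CTL libraries Gja1, Gja5, Jup and Dsg2 followed, with means from 36.5 to 50.8 CPM per kilobase, and their order was not resolved because the ranges of neighbours overlapped. Cdh2 and Pkp2 came next by mean, their own ranges overlapping, then Tjp1, and Gjc1 and Gja4 were lowest at 3.11 to 4.30 CPM per kilobase. In IBR libraries the place of Gja5 above Cdh2 and Pkp2 was not resolved. Its range of 25.9 to 64.0 CPM per kilobase overlapped those of Cdh2 (23.1 to 35.7) and Pkp2 (22.4 to 29.5). In CTL libraries the lowest Dsg2 value (33.74) lay just below the highest Pkp2 value (33.76).

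In WT libraries Gja5 (43.2 ± 3.13 CPM per kilobase) and Gja1 (41.3 ± 17.7) overlapped and ranked next after Dsp. The order in KO libraries was flatter. Between Gja1 at 42.1 ± 29.7 and Pkp2 at 18.7 ± 2.73 CPM per kilobase, the genes ranked second to ninth each overlapped their neighbour in the order. Gja4, ninth in WT libraries at 9.79 ± 4.51 CPM per kilobase, stood eighth in KO libraries at 19.3 ± 11.2.

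**Figure D1:**
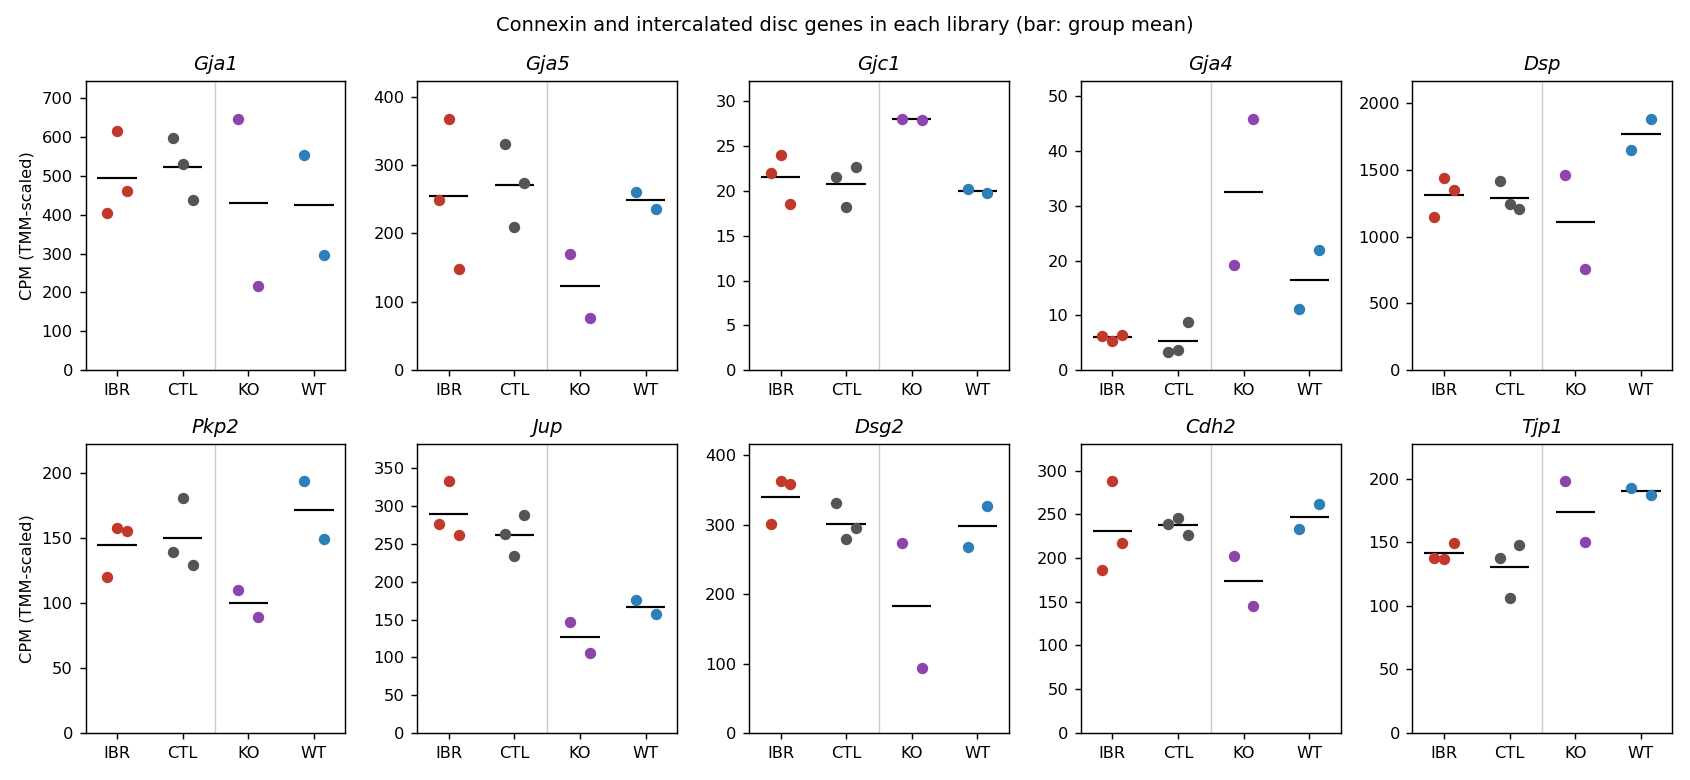
CPM of each of the 10 genes in every library (points), with the group mean as a bar; each panel has its own axis from 0. IBR and CTL points overlap in all 10 panels, while KO points lie below WT points for Gja5, Dsp, Pkp2, Jup and Cdh2 and above them for Gjc1.

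Under ibrutinib none of the 10 genes was called, and the IBR and CTL libraries overlapped for every gene. The log2 differences, IBR minus CTL, ran from -0.09 for Gja5 to 0.19 for Gja4 with a median of 0.04, and 6 were above 0 and 4 below, where 55.2% of all genes were below. For 8 of the 10, all but Jup and Dsg2, the sign turned when some library was left out. No gene of all 15364 was called (0%) in edgeR's quasi-likelihood test with Benjamini-Hochberg adjustment, and 5.52% of them had an unadjusted p under 0.05, where none of the 10 did. DESeq2's Wald test called 2 genes, neither of them among the 10. The 2 groups did not overlap for 13.4% of all genes and for 0 of the 10. The all-gene median difference was -0.03.

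Gja5 (ENSMUSG00000057123) had 249, 368 and 149 CPM in the IBR libraries, against 331, 209 and 273 CPM in the CTL libraries. The highest and the lowest of the 6 values were both IBR libraries. The log2 difference was -0.09 (SE 0.36, edgeR adjusted p = 0.973). Gja1 (ENSMUSG00000050953) had 405, 615 and 462 CPM in IBR, against 596, 531 and 437 CPM in CTL libraries. IBR2 was again the highest, and the log2 difference of -0.08 (SE 0.38, edgeR adjusted p = 0.977) was a fraction of its error. Among the IBR libraries the lowest was IBR3 for Gja5 and IBR1 for Gja1.

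Gjc1 (ENSMUSG00000034520) encodes connexin 45, the connexin of nodal and early heart cells, and had 22.01, 24.1 and 18.5 CPM in IBR, against 21.6, 18.2 and 22.7 CPM in CTL libraries. Gja4 (ENSMUSG00000050234), which encodes connexin 37 of arterial endothelium, had 6.29, 5.40 and 6.36 CPM in IBR and 3.30, 3.67 and 8.75 CPM in CTL libraries. CTL3 alone carried Gja4 above the IBR libraries, and without it the log2 difference was 0.79 in place of 0.19, still not called. For Gjc1 the difference was 0.05 (SE 0.14).

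Among the desmosome genes, Dsp (ENSMUSG00000054889) had 1151, 1441 and 1350 CPM in IBR and 1419, 1243 and 1205 CPM in CTL libraries, a log2 difference of 0.03 (SE 0.23). Pkp2 (ENSMUSG00000041957), plakophilin 2 of the desmosomal plaque, had 120, 158 and 156 CPM in IBR and 139, 181 and 129 CPM in CTL libraries (log2 -0.05, SE 0.18). Jup (ENSMUSG00000001552) encodes plakoglobin, which is shared by desmosomes and adherens junctions. It had 276, 333 and 262 CPM in IBR and 263, 234 and 288 CPM in CTL libraries (log2 0.15, SE 0.16), the largest of the 10 differences relative to its error, with an edgeR adjusted p of 0.883.

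Dsg2 (ENSMUSG00000044393), the desmosomal cadherin desmoglein 2, had 300.5, 362 and 359 CPM in IBR and 331, 279 and 295 CPM in CTL libraries (log2 0.17, SE 0.31). Cdh2 (ENSMUSG00000024304), N-cadherin, had 186, 288 and 217 CPM in IBR and 239, 246 and 227 CPM in CTL libraries (log2 -0.04, SE 0.18). IBR1 was the lowest IBR library for both of these cadherins. Tjp1 (ENSMUSG00000030516), the scaffold ZO-1 at the rim of gap junctions, had 137, 137 and 149 CPM in IBR and 137, 106 and 148 CPM in CTL libraries (log2 0.11, SE 0.15).

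**Figure D2:**
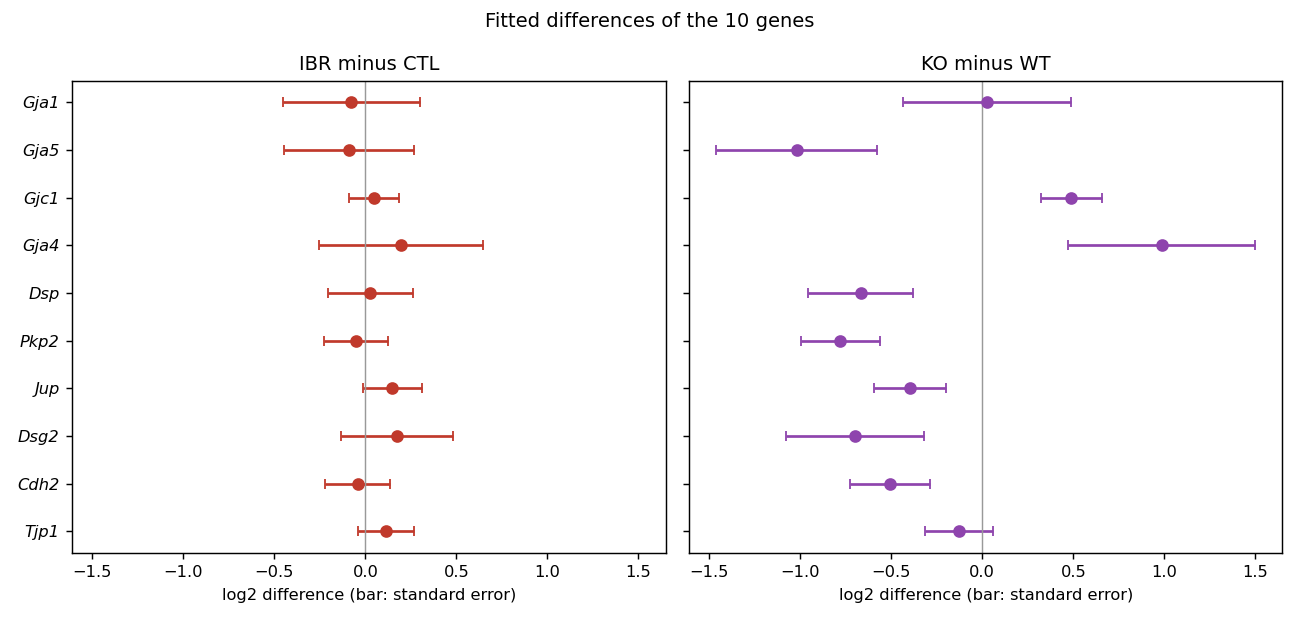
Fitted log2 difference of each gene (point) with its standard error (bar), for IBR minus CTL on the left and KO minus WT on the right. On the left all points lie between -0.09 and 0.19; on the right 7 lie below 0, from -0.13 for Tjp1 to -1.02 for Gja5, and Gja1, Gjc1 and Gja4 lie above it.

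In the libraries labelled KO, Gja5 averaged 122 ± 66.2 CPM against 248 ± 17.96 CPM in WT libraries, while Gja1 had nearly the same mean in both groups. The 4 desmosome genes and Cdh2 had lower means in KO libraries, and Gjc1 and Gja4 had higher ones. None of the 10 was called at an adjusted p under 0.05, where 2.21% of all genes were (1.31% higher and 0.898% lower in KO). An unadjusted p under 0.05 was found for 5 of the 10, 4 of them lower in KO, and for 25.7% of all genes, with 12.4% lower. The KO and WT libraries did not overlap for 6 of the 10 genes, 5 lower and 1 higher in KO, and for 53.2% of all genes (26.2% higher and 27% lower), so the count of 6 lies near the background. The median of the 10 log2 differences was -0.45, with 7 below 0, where the median of all genes was 0.01 and 49.2% were below 0.

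Gja5 had 169 CPM in KO26 but 75.7 CPM in KO337, compared with 261 and 236 CPM in WT35 and WT338. Both KO libraries were below both WT libraries, KO337 by the wider margin. The log2 difference was -1.02 (SE 0.44), 2.03-fold lower, with an unadjusted p of 0.044 and an adjusted p of 0.182 in edgeR's test. Gja1 had 647 CPM in KO26 but 216 CPM in KO337, compared with 552 CPM in WT35 and 295 CPM in WT338. The highest and the lowest values were both KO libraries, and the WT libraries also lay far apart. The log2 difference was 0.03 (SE 0.46), and it was 0.59 without KO337 and -0.99 without KO26, so the direction of Gja1 rests on which KO library is kept.

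Gjc1 had 28.1 CPM in KO26 and 27.96 CPM in KO337, compared with 20.3 and 19.7 CPM in WT libraries. Of the 10 genes it was the closest between KO26 and KO337, and its log2 difference was 0.49 (SE 0.17, edgeR unadjusted p = 0.0151, adjusted p = 0.115). Gja4 had 19.1 and 45.9 CPM in KO26 and KO337, against 11.1 and 21.9 CPM in WT libraries. KO26 lay below WT338, so the groups overlapped (log2 0.99, SE 0.51, edgeR adjusted p = 0.254). Without KO337 the Gja4 difference was 0.20. The summed level of 8 arterial endothelial markers was 223 and 370.1 CPM in KO26 and KO337, against 164 and 195 CPM in WT libraries. Of the 7 of these markers that were tested, 6 were above 0 in KO minus WT (median log2 0.14), and Gkn3 was at 0 counts in at least 1 library. Fbln5, an elastic fibre gene, supplied 215 CPM of the sum in KO337 but 51.2 CPM in KO26, compared with 40.0 and 50.3 CPM in WT libraries, while Hey1 and Dll4 were lower in KO337 than in the other 3 libraries. The part of these markers in the Gja4 values was not tested.

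As shares of the summed CPM per kilobase of the 4 connexins, Gja5 held 26.9% and 19.7% in KO26 and KO337, against 41.3% and 47.3% in WT35 and WT338. Gja1 held 57.6% and 31.4% in KO26 and KO337, against 49.0% and 33.2% in WT libraries. Gja4 made up 40.6% of the sum in KO337 and 10.4% in KO26, against 6.00% and 14.96% in WT libraries. The low Gja5 share was thus seen in both KO libraries. By this measure the largest share belonged to Gja1 in KO26 and to Gja4 in KO337. That order depends on the exon lengths used, 10257 bases for Gja1 and 1685 bases for Gja4. In plain CPM, KO337 had 216 CPM of Gja1 against 45.9 CPM of Gja4. In IBR libraries Gja5 held 43.0% ± 8.69, against 44.5% ± 5.02 in CTL libraries (SD, n = 3 each).

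**Figure D3:**
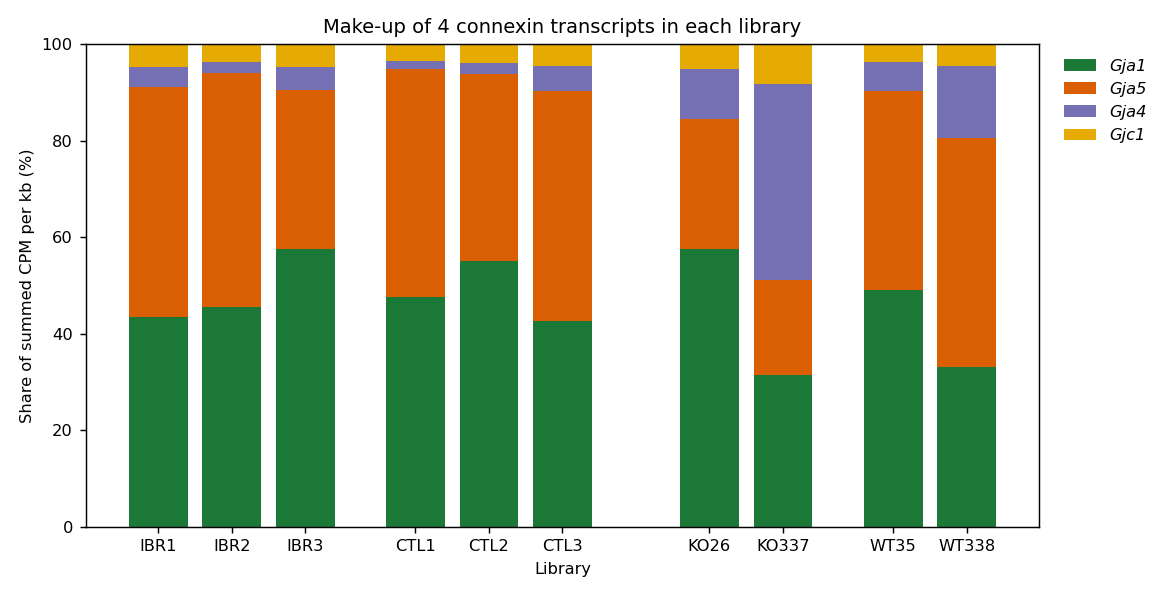
Share of Gja1, Gja5, Gja4 and Gjc1 in their summed CPM per kilobase, 1 bar per library, in percent. The Gja5 segment covers 19.7% to 26.9% in the KO libraries and 41.3% to 47.3% in the WT libraries, and in KO337 Gja4 covers 40.6%. Segment sizes depend on the exon lengths used.

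The log2 ratio of Gja5 to Gja1 within a library does not depend on library scaling. It was -1.93 and -1.51 in KO26 and KO337, against -1.08 and -0.32 in WT35 and WT338. Both KO ratios were below both WT ratios, with a mean difference of -1.02, and the 2-sided exact permutation test gave p = 0.333, the smallest it can give with 2 against 2 libraries. The difference was -0.64 without WT338, -0.81 without KO26, -1.23 without KO337 and -1.40 without WT35. In IBR libraries the ratio was -0.70, -0.74 and -1.63, against -0.85, -1.34 and -0.68 in CTL libraries. Those groups overlapped, with a difference of -0.07 (exact permutation p = 0.8, where 0.1 is the smallest possible). IBR3 carried the lowest of these 6 ratios, and without it the difference was 0.23.

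Dsp had 1465 CPM in KO26 but 757 CPM in KO337, compared with 1648 and 1883 CPM in WT35 and WT338. Both KO libraries lay below both WT libraries, KO26 by little (log2 -0.67, SE 0.29, edgeR unadjusted p = 0.0415, adjusted p = 0.178). Pkp2 had 110 and 89.7 CPM in KO26 and KO337, against 194 and 150 CPM in WT libraries. It had the smallest p of the 10 genes (log2 -0.78, SE 0.22, unadjusted p = 0.00474, adjusted p = 0.0788 in edgeR's test). DESeq2's Wald test called it, at the same log2 difference and an adjusted p of 0.0165, and over the 15 alternatives its adjusted p ran from 0.0128 to 0.324.

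Jup had 147 and 106 CPM in KO26 and KO337, against 176 and 157 CPM in WT libraries. The groups did not overlap, and the log2 difference was -0.40 (SE 0.20, edgeR adjusted p = 0.233). Dsg2 had 273 CPM in KO26, within the WT values of 268 and 327 CPM, and 93.6 CPM in KO337. The groups overlapped, and the log2 difference of -0.70 (SE 0.38, edgeR adjusted p = 0.271) was -0.14 without KO337.

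Cdh2 had 202 and 146 CPM in KO26 and KO337, against 233 and 261 CPM in WT libraries. Both KO values were lower (log2 -0.51, SE 0.22, edgeR unadjusted p = 0.0441, adjusted p = 0.183). Tjp1 had 198 and 150 CPM in KO26 and KO337, against 193 and 187 CPM in WT libraries. KO26 was the highest and KO337 the lowest of the 4, and the log2 difference was -0.13 (SE 0.19, edgeR adjusted p = 0.70), or 0.04 without KO337.

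The number of genes called depended on the KO library. Without KO26, 6 of the 10 were called, all lower: Gja5 at -1.73, Dsp at -1.24, Pkp2 at -0.95, Jup at -0.67, Dsg2 at -1.68 and Cdh2 at -0.78 on the log2 scale. In that fit the lone KO337 is assumed to vary as the other groups do, and 3933 of all genes were called, against 339 with both. Without KO337 none of the 10 was called and the same genes stood at -0.57, -0.29, -0.66, -0.20, -0.14 and -0.31, with 55 of all genes called. All 6 were below 0 with either library.

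Markers of heart muscle moved with these genes. Of 12 cardiomyocyte markers, all 12 were below 0 in KO minus WT, with a median log2 difference of -0.88, none called and none at 0 counts in any library. Their summed level was 64955 CPM in KO26 but 33072 CPM in KO337, compared with 88542 and 83351 CPM in WT libraries. Of 12 leukocyte markers, 12 were above 0 (median 2.11) and 3 were called higher, namely Ptprc, Adgre1 and Cd3e, and the sum was 815 and 3449 CPM in KO26 and KO337, against 422 and 443 CPM in WT libraries. Of 10 fibroblast markers, 10 were above 0 (median 1.45) with Thy1 called, and the sum was 5724 and 16883 CPM in KO26 and KO337, against 5479 and 4989 CPM in WT libraries. These 4 calls were all lost without WT35, without WT338, without IBR3 and in the fit of KO and WT libraries alone, and all but that of Adgre1 without KO337. Thy1 and Cd3e also lost their calls without any other single IBR or CTL library. The 10 smooth muscle and pericyte markers had a median of 1.21. Their sum was 603 and 1132 CPM in KO26 and KO337, against 541 and 521 CPM in WT libraries. Medians were 0.14 for the 10 endothelial markers, -0.42 for the 9 counted epicardial and mesothelial markers and 0.59 for the 6 tested adipocyte markers. The 4 tested glial markers had a median of -0.83, and none of the markers in these lists was called. KO337 thus held the lowest cardiomyocyte sum and the highest leukocyte and fibroblast sums. The part of leukocytes and fibroblasts in the disc gene values was not tested.

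Set against muscle markers of the same library, most of the 10 genes were not lower in KO. The measure was the log2 CPM of a gene minus the mean log2 CPM of the 12 cardiomyocyte markers. Since these markers were themselves lower in KO (median log2 -0.88), any gene that did not change, or fell less, comes out above 0. The share of all genes above 0, or without overlap, on this measure was not computed, so the counts below are not particular to disc genes. The difference, KO minus WT, was above 0 for 9 of the 10 genes, among them Dsp (0.23), Jup (0.56), Cdh2 (0.45) and Tjp1 (0.84). Gja5 was the exception, at -4.08 and -4.22 in KO26 and KO337, against -3.98 and -4.01 in WT libraries, a difference of -0.15. Gja1 was higher in both KO libraries by this measure, at -2.15 and -2.71 in KO26 and KO337, against -2.90 and -3.69 in WT libraries, a difference of 0.87. Gjc1 stood at 1.46 and Gja4 at 1.90, and Pkp2 (0.20) and Dsg2 (0.09) overlapped between groups. Pkp2 turned to -0.16 without KO337, and Dsg2 to -0.17 without KO26 and to -0.11 without WT35. The sizes of the others depended on single libraries too. With each KO or WT library left out in turn, Gja1 was 0.47 to 1.26, Gjc1 0.95 to 1.97, Gja4 0.76 to 3.04, Dsp 0.08 to 0.39, Jup 0.29 to 0.84, Cdh2 0.18 to 0.73 and Gja5 -0.22 to -0.08, and Tjp1 was 0.52 without KO337. The lowest values came without KO337 for Gjc1, Gja4, Jup and Cdh2, without WT338 for Gja1 and without WT35 for Dsp. For the 8 genes whose groups did not overlap, the exact permutation p was 0.333, the smallest possible, and 0.417 adjusted over the 10.

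In IBR libraries the same measure was above that in CTL libraries for all 10 genes, by 0.02 for Gja5 to 0.51 for Gja4. A gene without a change also comes out above 0 here, since most of the cardiomyocyte markers were lower in IBR, as given below. The share of all genes above 0, or without overlap, on this measure was not computed. Dsp and Dsg2 did not overlap: Dsp averaged -1.67 ± 0.09 in IBR and -1.88 ± 0.13 in CTL libraries, and Dsg2 averaged -3.62 ± 0.11 in IBR and -3.98 ± 0.19 in CTL libraries (SD, n = 3 each). Both had an exact permutation p of 0.1, the smallest possible, and 0.5 adjusted over the 10 genes. The cardiomyocyte markers themselves had a median log2 difference of -0.21 in IBR minus CTL, with 9 of 12 below 0. Their sums ran from 85829 to 92117 CPM in IBR and from 92000 to 105382 CPM in CTL libraries, ranges that overlapped narrowly. Fibroblast markers were above 0 for 10 of 10 (median 0.72), with sums of 3388 to 5568 CPM in IBR and 2360 to 3535 CPM in CTL libraries, and leukocyte markers for 11 of 12 (median 0.44). Epicardial and mesothelial markers were above 0 for 9 of 9 (median 0.66), endothelial markers for 8 of 10 (median 0.35), arterial endothelial markers for 7 of 7 (median 0.22) and smooth muscle and pericyte markers for 7 of 10 (median 0.22). Glial markers had a median of 0.38 and adipocyte markers of -0.47, and no marker was called.

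**Figure D4:**
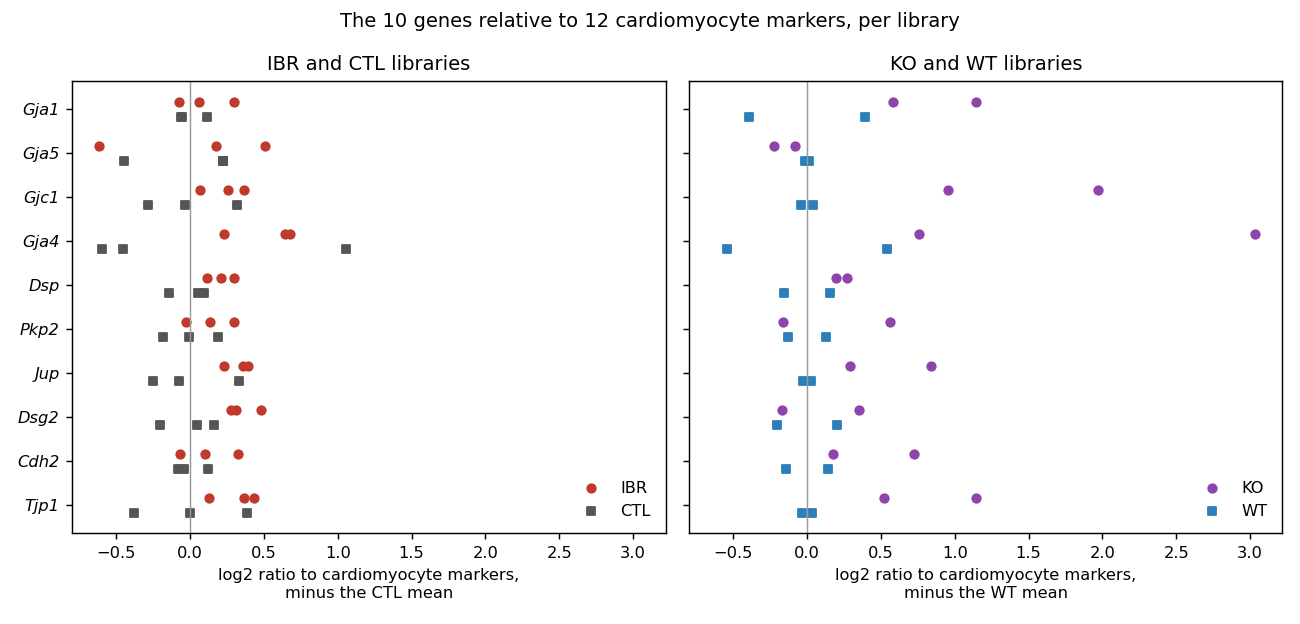
Log2 CPM of each gene minus the mean log2 CPM of 12 cardiomyocyte markers in the same library, shown minus the mean of CTL (left) or WT (right), 1 point per library. In the right panel Gja5 alone has both KO points below both WT points, and the KO337 points of Gja4 and Gjc1 lie furthest right.

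The difference between the 2 effects, KO minus WT less IBR minus CTL, was called for none of the 10 genes (2 without KO26, Dsp and Dsg2), against 0.026% of all genes, and Pkp2 was the only 1 of the 10 at an unadjusted p under 0.05, as were 9.79% of all genes. Pkp2 had the smallest p, with a difference of -0.73 (SE 0.28, edgeR adjusted p = 0.453), and Gja5 stood at -0.93 (SE 0.56, adjusted p = 0.597). No gene of the 10 was thus shown to differ between the treatment and the genotype comparison.

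Beyond the 10 genes, 5 lists of other junction and disc genes held 67 genes, of which 50 were tested. In KO minus WT 2 of the 50 were called by edgeR's test, both lower, where 2.21% of all genes were called and 0.898% were lower. Of the 50, 35 were below 0 and the median log2 difference was -0.34, beside 49.2% below 0 and a median of 0.01 for all genes. In IBR minus CTL none was called and the median was 0.04. Of 19 other gap junction and pannexin genes only 8 passed the filter. Panx2, a pannexin, a family of large-pore channels, fell to 9.92 and 8.49 CPM in KO26 and KO337, against 19.6 and 16.9 CPM in WT libraries (log2 -0.99, SE 0.20, edgeR adjusted p = 0.0404). Both KO values were well below both WT values. Gjc3 stood at -1.36 (adjusted p = 0.193) and reached no more than 1.53 CPM in any library.

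The 9 tested sodium channel and anchor genes of the disc had a median log2 difference of -0.74. Ank2, the ankyrin B anchor, was not called (log2 -0.95, edgeR adjusted p = 0.0726). By edgeR's test none of 9 tested genes listed with the desmosome was called (median -0.29). Dsc2, the desmocollin partner of Dsg2, stood at -0.90 and Tmem43 at 0.60. Tmem43 had 42.6 and 73.1 CPM in KO26 and KO337, against 38.0 and 38.4 CPM in WT libraries, and its log2 difference was 0.14 without KO337. None of 15 adherens and area composita genes was called either (median -0.32), with Ctnna3, the alpha T-catenin of the area composita, at -0.94 and Cdh13 at -0.58. Nor was any of 9 scaffold and tight junction genes (median -0.20), with F11r at -0.40 and Magi3 at -0.51. DESeq2's Wald test called Ank2, Ctnna3, Cdh13 and F11r, all lower, and the fit without a filter called Ank2 and Ctnna3. Without KO26 Ank2, Dsc2, Ctnna3, Cdh13, F11r and Magi3 were called lower and Tmem43 was called higher.

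Of 10 genes of connexin trafficking and turnover edgeR's test called none in KO minus WT (median -0.16). Cav3, the muscle caveolin, stood at -0.82 (edgeR adjusted p = 0.081) and Tmem65, an intercalated disc membrane protein, at -0.71 (adjusted p = 0.112), and both were called lower by DESeq2, without a filter and without KO26. Of 8 tested transcription regulators of connexins 1 was called: Hopx, a homeodomain protein that does not bind DNA itself, fell to 82.1 and 45.5 CPM in KO26 and KO337, against 171 and 146 CPM in WT libraries (log2 -1.31, SE 0.26, edgeR adjusted p = 0.0404). Tbx2, a T-box repressor, stood at 0.80 (adjusted p = 0.121). The calls of Panx2 and Hopx were each lost without WT35, without WT338 and without KO337, and in a fit of the KO and WT libraries alone. They were also lost without some of the IBR and CTL libraries, which share the estimate of spread: without any but IBR2 for Panx2 and any but CTL3 for Hopx. Over 15 alternatives their adjusted p ran from 0.000709 to 0.313 for Panx2 and from 0.000174 to 0.315 for Hopx, and both stayed below 0 in log2.

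In IBR minus CTL, the gene of smallest p in each of the 7 lists was not called. These were Gjc3 (log2 0.82), Pkp3 (1.31), Afdn (0.16), Ocln (0.41), Scn3b (0.70), Cav3 (-0.30) and Tbx3 (0.43), with edgeR adjusted p from 0.823 to 0.828. The 3 largest differences were at low levels. In IBR and CTL libraries Pkp3 reached no more than 0.67 CPM, Gjc3 no more than 0.43 CPM and Scn3b no more than 1.66 CPM. Tbx3, a T-box repressor of the conduction system, was the only one of the 7 whose IBR and CTL libraries did not overlap.

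**Figure D5:**
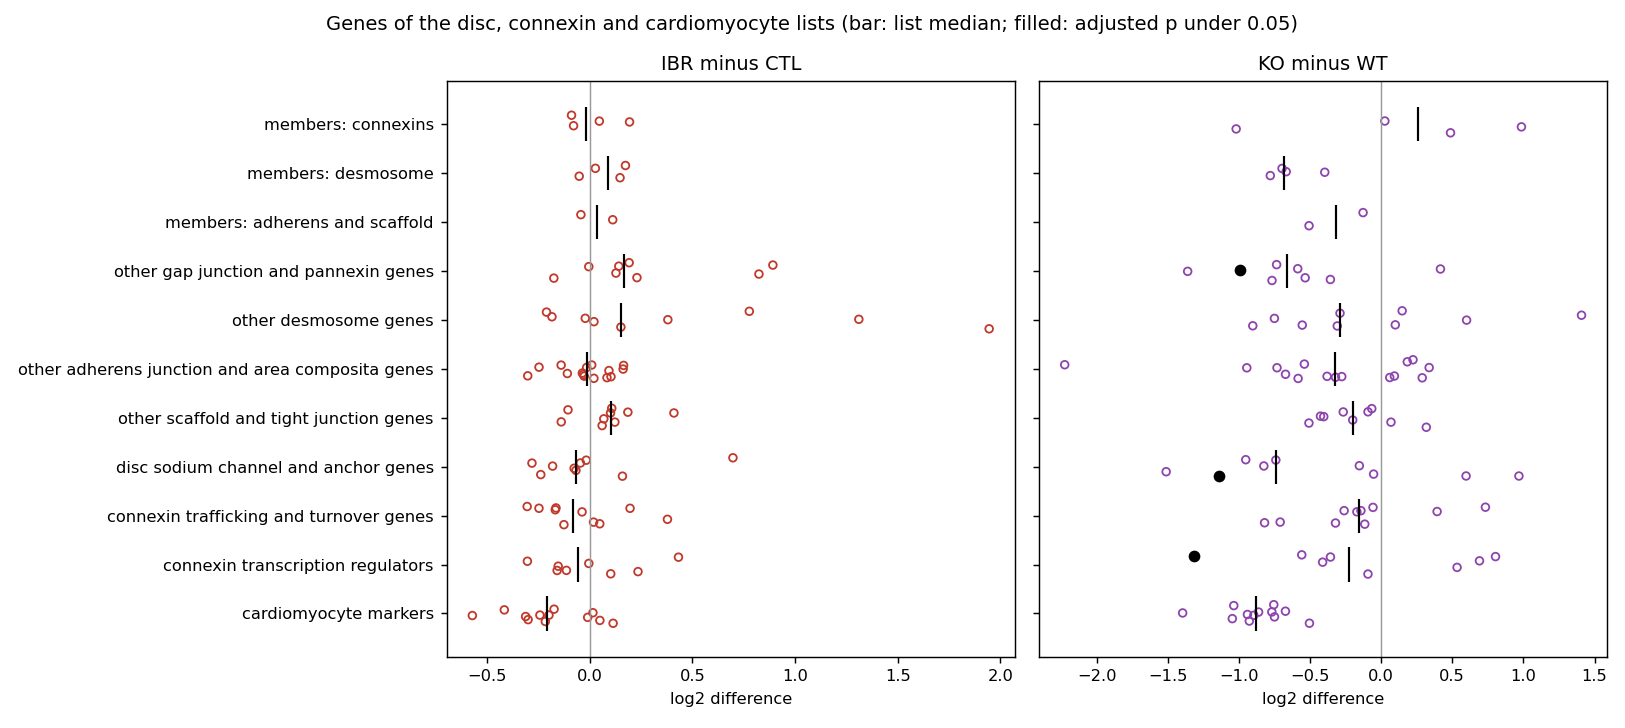
Log2 difference of every tested gene of the disc, connexin and cardiomyocyte lists (circles), with the list median as a bar, for IBR minus CTL (left) and KO minus WT (right); filled circles are called. Filled circles, Panx2 and Hopx among them, appear in the right panel alone, and all 12 cardiomyocyte markers lie below 0 there.

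Across the 10 libraries, the genes most like Gja5 among 7794 searched were Hmox2, Mtus1 and Slc22a23, with a Pearson correlation of log2 CPM of 0.924, 0.923 and 0.922. Those most like Gja1 were Fbxw7 (0.920), Ska2 (0.908) and Ppp1r3c (0.907), and those most like Dsp were Gmps (0.977), Arhgap26 (0.972) and Lmo7 (0.951), the last a disc-associated protein. Among the 10 genes, Gja5 ran closest to Cdh2 (0.816) and Dsg2 (0.803), and Gja4 ran opposite to Jup (-0.876). These values describe 10 libraries that differ in cell make-up and scaling factor, with KO337 far from the rest, and carry no test. The drug and genotype sets also differed from each other. Jup ran from 234 to 333 CPM in IBR and CTL libraries and from 106 to 176 CPM in KO and WT libraries. Gja4 ran from 3.30 to 8.75 CPM in IBR and CTL libraries and from 11.1 to 45.9 CPM in KO and WT libraries. The part of this difference in the correlations was not tested.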

How the data were processed

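The authors deposited raw read counts per gene, unnormalised, in 1 file per library, made with a poly(A)-selecting directional kit per the labels' protocols. The submitters' processing notes name STAR, HTSeq, edgeR and the mouse build mm9, without versions or annotation. The authors' counting ignored strand, as the deposited files are named. Reads of overlapping genes can therefore not be told apart: in GENCODE vM21, exons of Gja5 overlap those of Gpr89 on the other strand by 165 bases (at most 447 counts for Gpr89, at least 1676 for Gja5), and Dsg2 and Dsp each overlap a predicted gene. Each file held 37583 gene rows and 5 rows of unassigned reads, left out of sizes and tests: 13.5% to 19.9% in no feature, 3.14% to 3.99% ambiguous and 11.8% to 27.4% without a unique position. Symbols were matched for 32860 rows (87.4%).

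From these counts, edgeR 4.0.16 (with limma 3.58.1, R 4.3.3) kept genes by filterByExpr (minimum count 10, total 15) and scaled libraries by TMM, with factors of 1.157 in KO26, 1.228 in KO337 and 0.870 to 1.026 elsewhere. A robust quasi-likelihood fit over all 10 libraries, with a mean per group, gave IBR minus CTL, KO minus WT and their difference. Unless another test or an alternative is named, adjusted p-values are Benjamini-Hochberg values of this test over 15364 genes, and called means under 0.05. The standard error (SE) was derived from the F statistic, as the log2 difference divided by the root of F. Over all libraries the biological coefficient of variation was 0.221, while KO and WT libraries alone had 0.294 and IBR and CTL libraries alone 0.169, so the shared value is below that of the genotype libraries. Levels per kilobase divide CPM by the union of vM21 exons. Log2 CPM for ratios used a prior count of 2, and ratios were compared by 2-sided exact permutation tests over libraries. The fit was also run on simulated counts, drawn with the same spread in every group. Such counts cannot check KO minus WT calls under the larger spread of the genotype libraries. Within no group did libraries agree within sampling noise, so none was counted as a repeat deposit.

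Alternatives were edgeR's relative log expression (RLE) factors, DESeq2 1.42.0 with its Wald test, no filter and an average of at least 1 CPM. Others were each library left out, only the groups compared, and a replicate block for IBR and CTL. For the ratios, a prior count of 0.5 and a marker list of Tnnt2, Actn2 and Ryr2 were also used. The 10 genes, the gene lists and the tests were chosen with earlier results of these data known. Of the other lists, the rule named each called gene and, per list, the 2 genes of smallest p in KO minus WT and the 1 in IBR minus CTL. Likeness searched genes of average log2 CPM of at least 4. Genes the rule takes from marker lists are given as sums and counts unless called. The RefSeq start regions are of another build than the files. A result of 1 listed gene is not reported here, and that gene stays in all counts and tests.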

Additional observations from a re-analysis of the deposited data

How the results depend on the processing

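Over the 15 alternatives, Gja5, Dsp, Pkp2, Jup, Dsg2 and Cdh2 stayed below 0 and Gjc1 and Gja4 above 0 in KO minus WT, and Jup and Dsg2 kept their sign in all 16 alternatives of IBR minus CTL. The cause of each change below was not tested, beyond the smaller number of libraries where one was left out.

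The number of genes called in KO minus WT was 339, and it was 1830 with DESeq2, 1146 without a filter, 0 with the libraries of both groups alone and 14 to 3933 with each library left out. In IBR minus CTL it was 2 with DESeq2 and 2 without a filter. For the difference of effects it was 140 with DESeq2, 84 without a filter and 0 to 1564 with each library left out. Of the 10 genes, 1 was called in KO minus WT with DESeq2 and 1 without a filter, both times Pkp2, 0 to 6 with each library left out, and 0 to 2 for the difference of effects.

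Directions turned as follows, each value a log2 difference. In KO minus WT, Gja1 was -0.017 without a filter and -0.99 to 0.59 with each library left out, and Tjp1 was -0.36 to 0.039. In IBR minus CTL, with each library left out, Gja1 was -0.27 to 0.047, Gja5 -0.45 to 0.19, Gjc1 -0.041 to 0.14, Gja4 -0.057 to 0.79, Dsp -0.044 to 0.11, Pkp2 -0.15 to 0.11, Cdh2 -0.23 to 0.089 and Tjp1 -0.017 to 0.21. The difference of effects was -0.91 to 0.65 for Gja1 and -0.013 to 1.34 for Gja4. The ratio of Gja5 to Gja1 was -0.26 to 0.23 in IBR minus CTL. Relative to cardiomyocyte markers, Gja1 was -0.0071 to 0.18 and Gja5 -0.22 to 0.34 in IBR minus CTL, and Pkp2 -0.16 to 0.56 and Dsg2 -0.17 to 0.35 in KO minus WT. Against Tnnt2, Actn2 and Ryr2 alone, Gja1 was -0.0061 and Gja5 -0.075 in IBR minus CTL.

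IBR and CTL share replicate numbers, but libraries of the same number did not deviate together in every pair (correlations of 0.016, 0.162 and 0.032), so the numbers were not taken as pairs. With the replicate block 0 genes were called, of all and of the 10. No paired analysis was possible for KO and WT because their libraries share no number. With 2 libraries per genotype group, exact tests cannot go below 0.333.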

Other observations

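Xirp1, an actin-binding repeat protein of the disc, was chosen here after its values were seen. It had 371 and 187 CPM in KO26 and KO337, against 2298 CPM in WT35 and 312 CPM in WT338. WT35 stood far above the other 9 libraries, since the IBR libraries had 221, 286 and 393 CPM and the CTL libraries 293, 503 and 314 CPM. The log2 difference, KO minus WT, was -2.23 (SE 0.76, edgeR adjusted p = 0.119), and the groups overlapped.

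Ctnnb1, which encodes beta-catenin, and Des, which encodes the desmin of the filaments that desmosomes anchor, were also read after their values were seen. Ctnnb1 had 488 and 599 CPM in KO26 and KO337, against 493 and 465 CPM in WT35 and WT338. Des had 904 and 590.5 CPM in KO26 and KO337, against 1145 and 1052 CPM in WT libraries. Beta-catenin messenger RNA was not lower in KO337, the library with the lowest level of most desmosome genes followed here.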
